A study of Mus musculus with 23 samples.

Results

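The Dppa genes (developmental pluripotency associated) were followed in mouse embryonic stem cells through Dppa2, Dppa3, Dppa4 and Dppa5a, 4 of the 53607 gene rows in the deposited counts. They were chosen by name, and with it known that Dppa3 is close to absent in 2iL libraries labelled ERF knockout, so that contrast is described below without a test. All 4 members passed the filter on low counts, as did 20372 rows in all. DPPA2 and DPPA4 are SAP-domain nuclear proteins that work as a pair at promoters carrying both activating and repressive histone marks, and they are needed for the genes of the two-cell-like state, such as Dux and Zscan4. DPPA3 (Stella, PGC7) is a maternal and germ cell factor that binds the methylation maintenance factor UHRF1 and so limits DNA methylation. DPPA5A (ESG1) is a small KH-domain RNA-binding protein of embryonic stem cells and germ cells.

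Bulk RNA was sequenced from 23 libraries in 8 groups, made from 3 factors. Every library is labelled with 1 genetic background (Raslox/lox): H-Ras-/-, N-Ras-/-, a floxed remaining RAS gene, and Ubiq-CreERT2, a tamoxifen-inducible Cre under a ubiquitin promoter. Groups are labelled ERF WT or ERF knockout, where ERF is an ETS-family transcriptional repressor that the kinase ERK inactivates. In the RAS-deleted groups 4-hydroxytamoxifen had been given for 6 days, and the drug and the deletion cannot be told apart, because no RAS-present library is labelled with it. Cells were in 2iL (the MEK inhibitor PD0325901, the GSK3 inhibitor CHIR99021 and LIF, which hold the naive state) or had spent 48 hours in FA, with FGF2 and Activin A, which moves them toward epiblast-like cells. There were 3 replicates a group, but only 2 for RAS-present, ERF wild-type cells in FA. The labels do not say that replicates are separate cultures, so p-values measure the spread between these libraries, which may be technical. Nor do they say from how many clones the ERF knockout label comes.

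Total counts ran from 16.2 to 29.9 M per library. Erf itself was not lost under the ERF knockout label: it was higher in 2iL (116 against 77.6 CPM with RAS present, and 152 against 87.8 CPM with RAS deleted) and overlapped in FA (57.5 against 63.1 CPM, and 60.6 against 69.7 CPM). Hras and Nras, labelled null in every library, had group means of 12.5 to 25.4 CPM and 15.6 to 43.1 CPM, and Nras ran from 5.32 to 52.3 CPM among the replicates of the ERF knockout label with RAS deleted in 2iL. Counts over a whole gene do not show which part of it is deleted or whether its protein is made, so they do not check these labels, and groups are called by their label throughout. Replicate 1 of all 4 ERF wild-type groups had raised expression of chromosome 8 (median log2 deviation from the group of 0.117 to 0.179). Replicate 1 of the groups labelled ERF knockout had a smaller rise of chromosome 11 (0.0330 to 0.0872). On chromosomes 6, 9 and 16, which carry the Dppa genes, deviations from the group stayed between -0.0185 and 0.0183 in every library. A shift shared by every library of a group cannot show in such deviations. Pluripotent stem cell markers summed to 1237 to 2222 CPM, none of the 8 at 0 in every library of a group. The summed level of 8 trophoblast markers was 19.1 to 41.6 CPM and that of 6 neural markers 31.1 to 147 CPM. Of the 8 fibroblast feeder markers 1 to 3 were at 0 counts in every library of a group, and nearly all of their sum (464 to 2408 CPM) was Fn1, which stem cells express. Markers of the other cell types that moved with the labels are given beside the Dppa results. Of the 8 pluripotent stem cell markers, 3 rose under the ERF knockout label in 2iL with RAS present (Lin28a 2.96, Dnmt3l 2.05 and Utf1 1.24) and 4 with RAS deleted (Lin28a 3.46, Tdgf1 1.92, Dnmt3l 1.76 and Utf1 1.49). In FA with RAS deleted that label had 3 higher (Epcam 1.77, Lin28a 1.66 and Tdgf1 1.09) and Sox2 lower (-1.43). RAS deletion in FA with ERF wild type raised Sox2 (1.64) and lowered 4, Epcam most (-2.31). Their part in the Dppa results was not tested.

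The composition of the libraries moved with the groups as well. The single row Gm26917 took 24.2% to 27.9% of counts in 2iL and 17.6% to 25.1% in FA. Leaving it out changed no call of a Dppa gene except that of Dppa5a for RAS deletion in FA with ERF wild type, which then passed 2-fold. Mitochondrial genes took 3.36% to 3.40% under the ERF knockout label in 2iL with RAS present, against 2.35% to 2.85% with ERF wild type. With RAS deleted the order was the other way, at 2.84% to 2.90% against 2.93% to 3.12%. In FA with RAS present they took 3.65% to 3.99% under the label and 2.98% to 3.10% with ERF wild type. In FA with RAS deleted they took 2.985% to 3.95% under the label and 2.09% to 2.981% with ERF wild type. The part of the mitochondrial share in the results was not tested.

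Dppa4 and Dppa2 are neighbours on the same strand of chromosome 16 in GRCm38: Dppa4 lies at chr16:48283733-48294237 (+) and Dppa2 at chr16:48303908-48319723 (+), with 9670 bases between them. Dppa3 lies at chr6:122626410-122630272 (+) and Dppa5a at chr9:78367052-78368177 (-). All 4 are protein-coding, and their longest coding sequences span 903 (Dppa2), 888 (Dppa4), 450 (Dppa3) and 354 bases (Dppa5a). Reads were counted over whole genes, so no exon or UTR is singled out. Near-identical copies could take reads from 2 members. Dppa3-ps and Dppa5b held at most 1 and 10 estimated counts in any library, which does not show how many reads were ambiguous.

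On the per-length scale of TPM, Dppa5a was by far the most abundant member. It ranked between 21 and 88 among all gene rows in every group, and ran from 858 to 2285 TPM over the 23 libraries. Dppa4 ran from 21.6 to 49.0 TPM and Dppa2 from 10.3 to 47.5 TPM. Dppa3 had the widest span, from 0.936 to 80.8 TPM, and its rank among gene rows went from 985 (ERF wild type, RAS deleted, 2iL) to 12169 (ERF knockout label, RAS deleted, 2iL).

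The order of the members changed between groups. In 2iL with ERF wild type, the TPM of Dppa3 was 1.77 ± 0.162 times that of Dppa4 with RAS present and 3.06 ± 0.190 times with RAS deleted (SD, n = 3 each). In 2iL libraries labelled ERF knockout the same ratio was 0.0627 ± 0.0299 and 0.0504 ± 0.0192 (SD, n = 3 each). Dppa4 stood above Dppa2 in TPM in 7 of 8 group means of their ratio, up to 2.37 ± 0.287 times (SD, n = 3) under the ERF knockout label in 2iL with RAS present. The exception was ERF wild type with RAS deleted in 2iL, at 0.839 ± 0.0959 (SD, n = 3). With RAS deleted and ERF wild type in FA the ratio was 1.00 ± 0.144 (SD, n = 3), so there the TPM of Dppa4 and Dppa2 did not differ beyond the spread.

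**Figure D1:**
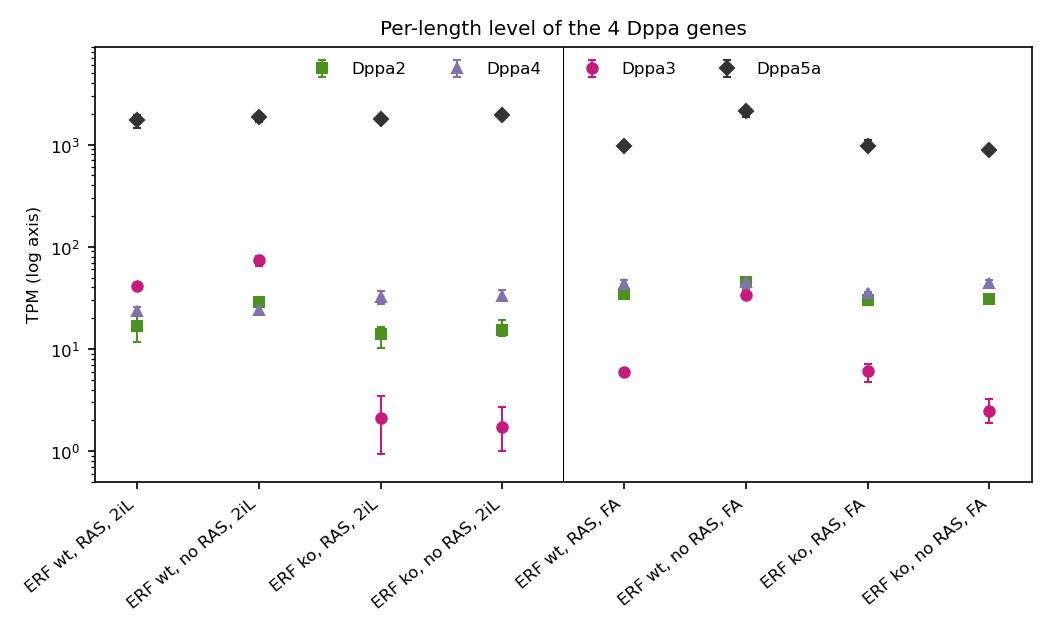
Mean TPM of each Dppa gene in the 8 groups, on a log axis, with bars from the lowest to the highest library (2iL groups left of the line, FA groups right). Dppa5a stands above the others in every group, while Dppa3 is the second highest of the 4 members in 2iL with ERF wild type and the lowest in every other group.

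Dppa3, the UHRF1-binding factor, was present in 2iL with ERF wild type and close to lost under the ERF knockout label. With RAS present its level was 28.6, 30.4 and 27.8 CPM in the ERF wild-type libraries and 2.40, 1.52 and 0.736 CPM in those labelled ERF knockout, from 50, 28 and 14 counts. With RAS deleted it was 47.2, 54.0 and 52.4 CPM against 2.11, 0.896 and 1.15 CPM, the latter from 37, 16 and 17 counts. Every library labelled ERF knockout was below every ERF wild-type library, by 18.4-fold (log2 change -4.20) with RAS present and 36.7-fold (-5.20) with RAS deleted. These differences chose the member and carry no test. Over all genes, 9.72% and 13% were called in these 2 comparisons, and nothing is read from that here. In bulk RNA, fewer cells expressing a gene and less RNA per cell cannot be told apart.

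Primitive endoderm markers (Gata4, Gata6, Sox17, Sox7, Pdgfra, Dab2, Foxa2, Lama1, Col4a1) were higher in the same libraries. With RAS present 7 of the 9 rose under the ERF knockout label in 2iL, and their summed level was 402 to 1017 CPM against 123 to 134 CPM. With RAS deleted 3 of the 9 rose (Col4a1, Foxa2 and Lama1), with sums of 196 to 429 CPM against 109 to 114 CPM. None of the 9 was at 0 in every library of a group. Trophoblast markers were mixed, with 1 of 8 higher (Krt8, 2.74 and 2.25) and 2 lower in either RAS state, Gata3 most (-4.98 and -4.97). Of 5 neural markers tested, 2 fell with RAS present (Nes and Tubb3, sums of 31.1 to 35.7 CPM against 46.2 to 78.5 CPM), and 1 rose (Sox1) and 1 fell (Tubb3) with RAS deleted. Of 5 feeder markers tested, Thy1 rose and Col1a1 fell in both. The part of such cells in the Dppa3 level was not tested.

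The 16 naive genes, those of the 2iL state, summed to 3881 to 4588 CPM under the ERF knockout label in 2iL and to 4025 to 4604 CPM with ERF wild type. Of these 16, 1 fell under the label with RAS present, Prdm14 (log2 change -1.35, list median -0.24, all genes -0.00193). With RAS deleted 4 fell, Prdm14 (-1.57), Tcl1 (-1.11), Nr5a2 (-1.07) and Zfp42 (-1.03), with a list median of -0.13 (all genes -0.0105).

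**Figure D2:**
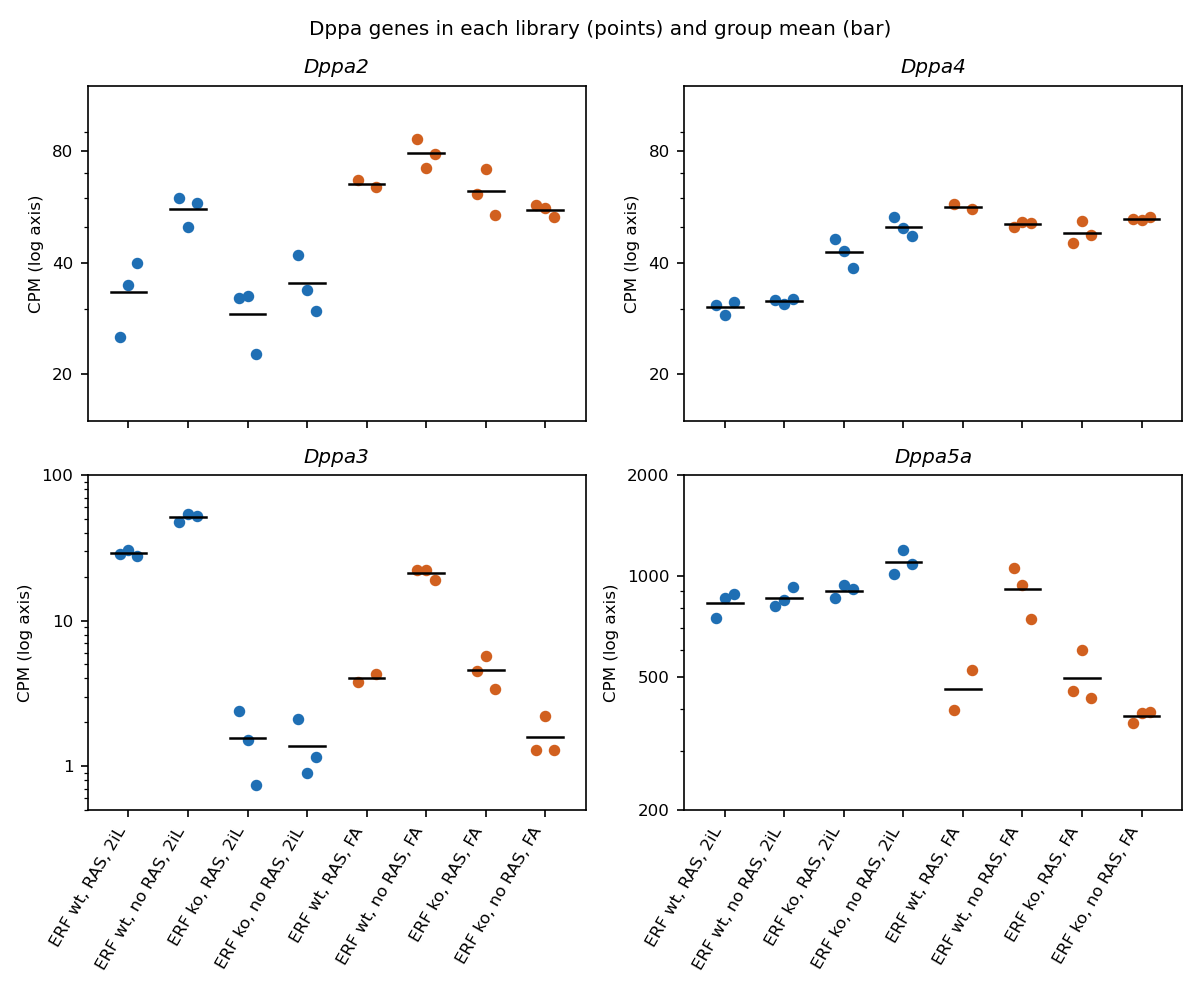
CPM of the 4 Dppa genes in each of the 23 libraries (points, log axes, blue for 2iL and orange for FA) with the group mean as a bar. Dppa3 separates into high, middle and low groups, from 54.0 CPM down to 0.736 CPM, whereas Dppa2 and Dppa4 stay between 22.7 and 86.3 CPM.

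Over the 8 groups Dppa3 stood in the order 51.2 ± 3.55 CPM (ERF wild type, RAS deleted, 2iL), 28.9 ± 1.33 CPM (ERF wild type, RAS present, 2iL) and 21.1 ± 1.72 CPM (ERF wild type, RAS deleted, FA), each range apart from the next (SD, n = 3 each). A middle pair followed in FA with RAS present, at 4.55 ± 1.17 CPM under the ERF knockout label (SD, n = 3) and 4.04 ± 0.376 CPM with ERF wild type (SD, n = 2), with ranges that overlapped. The lowest 3 groups were those labelled ERF knockout with RAS deleted in FA (1.59 ± 0.530 CPM), with RAS present in 2iL (1.55 ± 0.834 CPM) and with RAS deleted in 2iL (1.38 ± 0.639 CPM), and they did not differ beyond their spread (SD, n = 3 each).

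The medium comparison asks what 48 hours in FA does to each gene. With ERF wild type and RAS present, Dppa3 fell in FA to 3.78 and 4.31 CPM, 7.17-fold below 2iL (log2 change -2.84, SE 0.27, edgeR quasi-likelihood adjusted p 2.35e-08). It also fell with ERF wild type and RAS deleted, from 51.2 to 21.1 CPM, the FA libraries at 22.1, 22.1 and 19.1 CPM (log2 change -1.28, SE 0.20, edgeR adjusted p 2.99e-05). The FA libraries lay below all 2iL libraries in both. The smaller fall without RAS was tested as an interaction and passed, at a log2 difference of 1.56 (SE 0.33, edgeR adjusted p 0.00124). Where the 2iL level was already low, under the ERF knockout label, Dppa3 was 4.52, 5.73 and 3.39 CPM in FA with RAS present, all above the 2iL libraries (log2 change 1.53, described only). With RAS deleted the FA values of 1.29, 2.20 and 1.28 CPM overlapped those of 2iL.

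Primitive endoderm markers moved with the medium too. Of the 9, 7 rose in FA in ERF wild-type cells with RAS, from a sum of 123 to 134 CPM to 302 to 555 CPM, and without RAS 3 rose and 2 fell, from 109 to 114 CPM to 142 to 219 CPM. In cells labelled ERF knockout 3 rose and 0 fell with RAS (402 to 1017 CPM in 2iL and 517 to 753 CPM in FA), and 2 rose and 1 fell without it (196 to 429 CPM and 180 to 434 CPM), and both pairs of sums overlapped. Neural markers rose in FA as well, 2 of 5 tested in either RAS state with ERF wild type and 3 of 5 in either under the other label. Their part in the medium results was not tested.

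RAS deletion had opposite effects on Dppa3 in FA depending on the ERF label. With ERF wild type, Dppa3 rose from 3.78 and 4.31 CPM to 19.1 to 22.1 CPM (5.23-fold, log2 change 2.39, SE 0.26, edgeR adjusted p 4.12e-07). It fell under the ERF knockout label, from 3.39 to 5.73 CPM to 1.28 to 2.20 CPM (2.87-fold, log2 change -1.52, SE 0.27, edgeR adjusted p 0.000451). Neither pair of groups overlapped. The difference between the effects, the RAS by ERF interaction in FA, was -3.91 on the log2 scale (SE 0.38, edgeR adjusted p 2.15e-07). In 2iL with ERF wild type, RAS deletion was accompanied by a higher Dppa3 in every library (log2 change 0.82, SE 0.20, edgeR adjusted p 0.0186), which missed the 2-fold minimum.

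The ERF label made no detectable difference to Dppa3 in FA with RAS present: the log2 change was 0.17 with a 95% interval from -0.40 to 0.75 (edgeR adjusted p 0.756). With RAS deleted in FA, Dppa3 was 13.3-fold lower under the ERF knockout label (log2 change -3.74, SE 0.25, edgeR adjusted p 3.39e-10), and all 3 libraries lay below all 3 of the other group. In that comparison 2 of the 9 primitive endoderm markers rose (Lama1 and Gata6), and the 9 summed to 180 to 434 CPM under the label and 142 to 219 CPM with ERF wild type, ranges that overlap. For RAS deletion in FA they moved too: with ERF wild type 8 of the 9 fell, from a sum of 302 to 555 CPM to 142 to 219 CPM, and under the ERF knockout label 5 of the 9 fell, from 517 to 753 CPM to 180 to 434 CPM. Dppa3 rose in the first of these and fell in the second.

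Other marker lists moved in the same FA comparisons. For the ERF label with RAS deleted, where Dppa3 and Dppa5a fell, 2 of 5 neural markers tested rose (Sox1 3.26 and Pax6 1.70), with sums of 137 to 147 CPM against 78.5 to 101 CPM. There 3 of 8 trophoblast markers rose (Cdx2 2.10, Hand1 2.03 and Krt8 2.02) and Gata3 fell (-2.43), with sums that overlapped at 36.1 to 37.0 CPM and 29.8 to 39.1 CPM. Of 5 feeder markers tested Col1a2 (2.07) and Col1a1 (1.55) rose, while the summed list was lower, at 618 to 800 CPM against 1089 to 1456 CPM. For RAS deletion with ERF wild type, 1 neural marker rose and 1 fell, 2 trophoblast markers rose and 4 fell, and 1 feeder marker rose and 3 fell. For RAS deletion under the ERF knockout label, 2 neural markers rose, 1 trophoblast marker rose and 1 fell, and 1 feeder marker rose. The part of cells of these types in any Dppa3 or Dppa5a result was not tested.

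Dppa5a, the abundant KH-domain member, held a high level in 5 groups and a lower one in 3. All 4 groups in 2iL, and ERF wild type with RAS deleted in FA, had means of 829 to 1096 CPM. The other FA groups had means of 495 ± 92.0 CPM (ERF knockout label, RAS present, SD, n = 3), 459 ± 88.7 CPM (ERF wild type, RAS present, SD, n = 2) and 382 ± 16.1 CPM (ERF knockout label, RAS deleted, SD, n = 3). The lowest library of the high set (741 CPM) was above the highest of the low set (600 CPM), and within the high set neighbouring groups overlapped.

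With RAS present, Dppa5a in FA was below every 2iL library, at 396 and 522 CPM with ERF wild type (log2 change -0.85, SE 0.15, edgeR adjusted p 5.11e-05) and 452, 600 and 432 CPM under the ERF knockout label (-0.87, SE 0.13, edgeR adjusted p 9.84e-06). Both passed the adjusted p and missed the 2-fold minimum. They reached it without FA replicate 2 of either group, at -1.08 and -1.04. The -1.08 rests on 1 FA library, assumed to vary like the other groups, which supply the spread. With RAS deleted under the ERF knockout label Dppa5a fell 2.87-fold, from 1009, 1194 and 1086 CPM to 363, 389 and 392 CPM (log2 change -1.52, SE 0.13, edgeR adjusted p 2.95e-09). In ERF wild-type cells without RAS, the libraries from FA stood at 1058, 940 and 741 CPM and overlapped the 2iL libraries (log2 change 0.09, 95% interval -0.18 to 0.35, edgeR adjusted p 0.618).

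The medium by RAS interaction of Dppa5a passed the adjusted p in both ERF backgrounds and missed the 2-fold minimum: 0.94 with ERF wild type (SE 0.19, edgeR adjusted p 0.000999) and -0.66 under the ERF knockout label (SE 0.18, edgeR adjusted p 0.0202). The first passed 2-fold without replicate 1 in 2iL with RAS present (1.02), replicate 2 in FA with RAS present (1.16) or replicate 3 in FA with RAS deleted (1.07). The 1.16 has 1 library in its FA group with RAS present and takes its spread from the other groups. The interaction also passed with the replicate number as a block (1.09). The numbers pair the samples for the medium with RAS deleted and for RAS deletion in 2iL, but not for the other contrasts within this interaction.

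Within FA, RAS deletion with ERF wild type brought Dppa5a from 396 and 522 CPM to 741 to 1058 CPM. The log2 change of 0.99 (SE 0.15, edgeR adjusted p 1.36e-05) lay just under the 2-fold minimum. It passed the minimum without replicate 3 of the RAS-deleted group (1.12) or replicate 2 of the RAS-present group (1.22), the latter again with 1 library left in that group and the spread taken from the others. The change under the ERF knockout label was -0.37 (SE 0.13, edgeR adjusted p 0.0344), also under 2-fold. The interaction passed both thresholds at -1.37 (SE 0.19, edgeR adjusted p 1.82e-05). With RAS deleted in FA, Dppa5a fell 2.39-fold under the ERF knockout label (log2 change -1.26, SE 0.13, edgeR adjusted p 9.18e-08), and the groups did not overlap. With RAS present the ERF label gave 0.11 (95% interval -0.19 to 0.40, edgeR adjusted p 0.697). In 2iL the ERF effect on Dppa5a is described only: 0.12 with RAS present, where ranges overlapped, and 0.35 with RAS deleted, where they did not.

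Dppa2, which pairs with Dppa4 at chromatin, was higher in FA than in 2iL in each of the 4 backgrounds, and every FA library was above every 2iL library of its own background. With ERF wild type and RAS present it went from 25.2, 34.8 and 40.1 CPM to 66.9 and 63.9 CPM (log2 change 0.98, SE 0.17, edgeR adjusted p 0.000103), just short of 2-fold. It passed 2-fold without replicate 2 (1.01) or replicate 3 (1.13) of the 2iL group. Under the ERF knockout label with RAS present it rose 2.14-fold, from 32.2, 32.6 and 22.7 CPM to 61.3, 71.8 and 53.8 CPM (log2 change 1.09, SE 0.16, edgeR adjusted p 1.29e-05). That call was lost, by the 2-fold minimum, without 2iL replicate 3 (0.94) or FA replicate 2 (0.97). With RAS deleted the changes were 0.50 with ERF wild type (SE 0.16, edgeR adjusted p 0.0147) and 0.66 under the ERF knockout label (SE 0.16, edgeR adjusted p 0.00161).

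RAS deletion in 2iL with ERF wild type went with a higher Dppa2, at 59.8, 50.1 and 58.2 CPM against 25.2 to 40.1 CPM (log2 change 0.75, SE 0.16, edgeR adjusted p 0.00993), under the 2-fold minimum. In FA the RAS effect was 0.27 with ERF wild type (edgeR adjusted p 0.229) and -0.16 under the ERF knockout label (edgeR adjusted p 0.471). The ERF label in FA with RAS deleted gave -0.50 (SE 0.15, edgeR adjusted p 0.0124), with 53.3 to 57.4 CPM against 71.9 to 86.3 CPM. The ERF effect in 2iL, described only, was -0.19 with RAS present (overlapping) and -0.67 with RAS deleted (all lower). In order of level, ERF wild type with RAS deleted in FA was highest at 79.0 ± 7.18 CPM and apart from the next group. The 4 groups from 65.4 down to 55.6 CPM each overlapped the next, as did the lowest 3, from 35.2 down to 29.2 CPM (SD, n = 3 for the highest).

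Dppa4, the partner of Dppa2, had the smallest span of the 4, 1.87-fold between its highest and lowest group mean. With ERF wild type it went from 30.7, 29.0 and 31.4 CPM in 2iL to 57.6 and 55.8 CPM in FA with RAS present (log2 change 0.90, SE 0.08, edgeR adjusted p 1.22e-09). With RAS deleted it went from 31.7, 30.9 and 31.9 CPM to 50.1, 51.7 and 51.1 CPM (0.69, SE 0.07, edgeR adjusted p 3.51e-08). Both passed the adjusted p and stayed under 2-fold. In cells labelled ERF knockout the 2iL and FA ranges overlapped, with changes of 0.18 with RAS present (edgeR adjusted p 0.0399) and 0.07 with RAS deleted (95% interval -0.07 to 0.21, edgeR adjusted p 0.399).

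In 2iL, Dppa4 was 46.4, 43.0 and 38.8 CPM under the ERF knockout label with RAS present and 53.1, 49.6 and 47.4 CPM with RAS deleted, all above the ERF wild-type libraries (log2 changes of 0.49 and then 0.67, described only). In those same libraries Dppa3 was low and Dppa2 had log2 changes of -0.19 and -0.67. RAS deletion left Dppa4 within 0.23 on the log2 scale of its RAS-present level in each background, and none of these 4 changes passed (edgeR adjusted p 0.107 to 0.734). In order of level, FA cells of ERF wild type with RAS were highest at 56.7 ± 1.28 CPM (SD, n = 2), and the ERF wild-type 2iL groups were lowest at 31.5 ± 0.507 and 30.4 ± 1.27 CPM (SD, n = 3 each), apart from the rest and overlapping each other. The 5 groups between, from 52.5 to 42.7 CPM, overlapped their next neighbour except the first of them (52.2 to 53.1 CPM against 50.1 to 51.7 CPM). In FA the interaction of RAS and ERF was 0.28 for Dppa4 (SE 0.10, edgeR adjusted p 0.0453), under 2-fold.

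**Figure D3:**
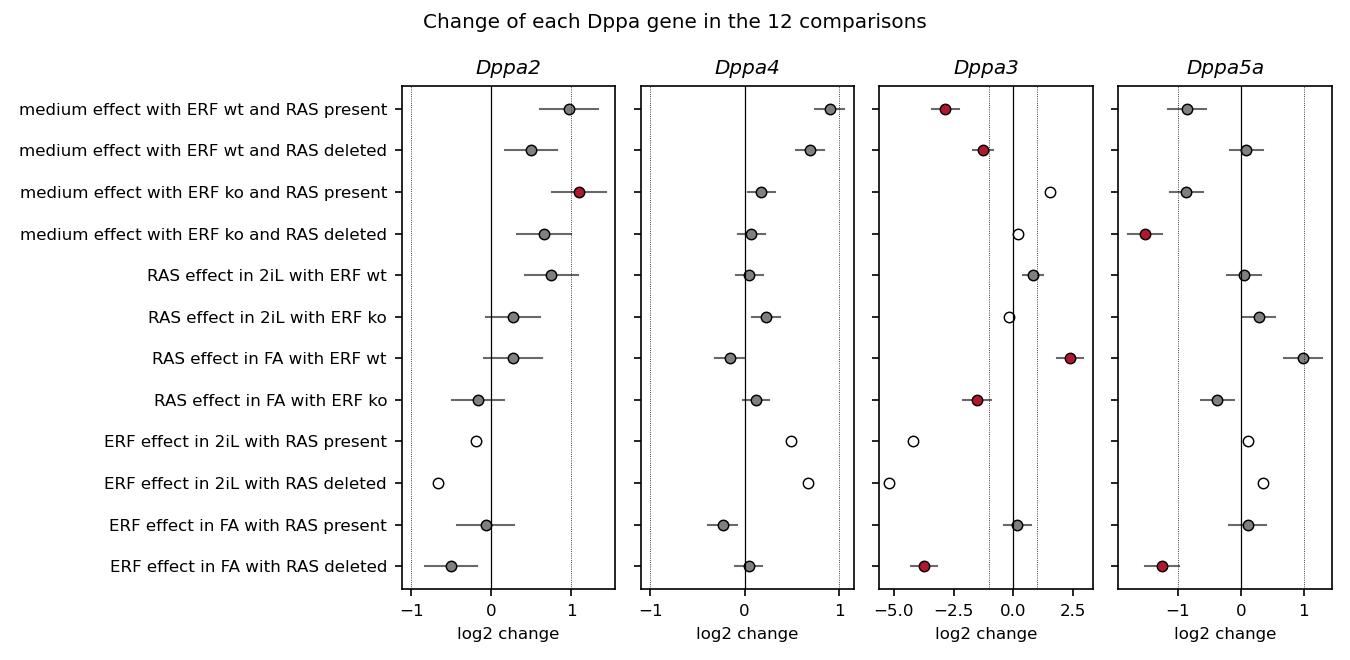
Log2 change of each Dppa gene (x axes, scaled per gene) in 12 comparisons, FA minus 2iL, RAS deleted minus present and ERF knockout label minus wild type. Bars are 95% intervals, red points passed an adjusted p of 0.05 and 2-fold (dotted lines), grey points did not pass both, and white points are described without a test. Dppa3 holds 5 of the 8 red points, from -3.74 to 2.39.

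Members that passed both thresholds are counted here by comparison, beside the share of all genes. With 3 or 4 members tested, nothing is read from these counts. For the medium, 1 of 4 was called with ERF wild type and RAS present, where 24% of all genes were, and 1 of 4 with RAS deleted (16.5% of all genes). Under the ERF knockout label 1 of 3 tested members was called with RAS present (19.7%) and 1 of 3 with RAS deleted (24.9%). In 2iL, RAS deletion called 0 of 4 with ERF wild type (1.2% of all genes; 2 members had an unadjusted p under 0.05, Dppa2 and Dppa3, and DESeq2 called 0) and 0 of 3 under the ERF knockout label (0.211% of all genes, or 43 genes, against 207 with the replicate number as a block; Dppa4 and Dppa5a had an unadjusted p under 0.05 and DESeq2 called 0). In FA it called 1 of 4 with ERF wild type (17.3%) and 1 of 4 under the ERF knockout label (6.88%). The ERF label in FA called 0 of 4 with RAS present (2.36%; Dppa4 alone had an unadjusted p under 0.05 and DESeq2 called 0) and 2 of 4 with RAS deleted (16.6%). The RAS by ERF interaction called 2 of 4 in FA (13.7%) and 0 of 3 in 2iL (0.378%). The medium by RAS interaction called 1 of 4 with ERF wild type (11.9%) and 0 of 3 under the ERF knockout label (4.59%). In each of those counts of 0, 1 member had an unadjusted p under 0.05 (Dppa2 and Dppa5a respectively) and DESeq2 called 0.

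Ranges of the members were apart more often, as they were for many genes. For the medium, all 4 were apart in RAS-present, ERF wild-type cells (60.7% of all genes) and 3 of 4 without RAS (50.7%). In cells labelled ERF knockout, 2 of the 3 tested members (Dppa2 and Dppa5a) were apart for the medium with RAS (58.2%), and so were 2 of 3 without it (65.2%). For RAS deletion in 2iL, 2 of 4 were apart with ERF wild type (27.2%) and 2 of 3 under the other label (24.6%). In FA the same counts were 4 of 4 (53.1%) and 3 of 4 (46.9%). For the ERF label in FA, 1 of 4 was apart with RAS present (38.9%) and 4 of 4 with RAS deleted (51.2%). In 2iL, where the contrast chose the members and nothing is read from the count, 2 of 4 were apart with RAS present (40.9%) and 4 of 4 with RAS deleted (53.2%).

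Genes that DPPA2 and DPPA4 are known to act on were taken as a list of 10 two-cell genes, Duxf3, 6 Zscan4 copies, Zfp352, Tcstv1 and Tcstv3. Zscan4 and Tcstv copies are near-identical, so reads could be divided among them. In 2iL with ERF wild type 4 of 10 rose with RAS deleted (median 2.36, all genes 0), with Tcstv3 at 3.67 and Zfp352 at 2.86. In FA with ERF wild type 5 of 10 rose with RAS deleted, led by Zscan4c (log2 change 2.45), with a list median of 1.84 against 0.00139 for all genes. The same deletion under the ERF knockout label lowered 2 of 10, Duxf3 (-2.09) and Tcstv1 (-1.97) (median -0.54, all genes 0). The RAS by ERF interaction in FA was lower for 5 of 10 (median -2.45, all genes 0.0177). Under the ERF knockout label in 2iL with RAS present all 10 rose (median 2.90, all genes -0.00193), including Zscan4b at 3.55 and Zfp352 at 3.26. With RAS deleted only Duxf3 of the 10 rose (2.21, list median 1.00, all genes -0.0105). For the ERF label in FA, 3 of 10 rose with RAS present (Zfp352 3.06, Tcstv1 2.53 and Duxf3 1.79, median 1.82, all genes -0.0041) and 1 of 10 with RAS deleted (Zfp352 1.47, median -0.62, all genes 0.0131). The summed level of the list varied widely between replicates: 138 to 590 CPM in FA with ERF wild type and RAS deleted, where Dppa2 varied only from 71.9 to 86.3 CPM. Lists and members were read on the same libraries, and this order of levels is no test of a link between them.

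Promoter regulators of the COMPASS and Polycomb complexes, which write the marks at DPPA2 and DPPA4 bound promoters, were mostly not called. With ERF wild type and RAS present 3 of 13 fell in FA (Rbbp5 -1.48, Wdr5 -1.43 and Suz12 -1.24; list median -0.54, all genes 0.03) while Dppa2 and Dppa4 were higher. For RAS deletion in FA with ERF wild type 0 of 13 were called. For the ERF label in FA with RAS deleted only Rbbp5 was (-1.04).

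The DNA methylation list holds the factors around DPPA3. For RAS-present, ERF wild-type cells in FA, where Dppa3 fell, Dnmt3l (log2 change 6.43), Dnmt3b (3.09) and Dnmt3a (2.50), the de novo methylation enzymes and their cofactor, were among 4 of 13 that rose, and the imprint protector Zfp57 fell (-1.96). In FA with ERF wild type, Dnmt3b fell (-1.93) and Zfp57 rose (1.67) with RAS deleted, where Dppa3 rose. With RAS deleted in FA the ERF knockout label had Dnmt3b at 1.52 and Zfp57 at -1.17, where Dppa3 fell. These 3 comparisons share libraries, so their directions are not independent. Other comparisons did not show that pattern. For RAS deletion in FA under the ERF knockout label, where Dppa3 also fell (-1.52), Zfp57 was at 0.23 and Dnmt3b at 0.16, neither called. For the medium under that label with RAS present Dppa3 was higher (1.53, described only), while Dnmt3b rose (2.77) and Zfp57 fell (-2.23). In 2iL, the ERF knockout label was accompanied by higher Dnmt3l, at 2.05 with RAS present and 1.76 with RAS deleted. Zfp57 rose there with RAS deleted (1.08, edgeR adjusted p 3.59e-09), where Dppa3 was low, and was at 0.55 with RAS present (edgeR adjusted p 6.03e-05, under 2-fold). Uhrf1, the binding partner of DPPA3, was picked out once its values were known. It was 342 to 379 CPM under the ERF knockout label in 2iL with RAS present and 404 to 443 CPM with ERF wild type (log2 change -0.22, SE 0.09, edgeR adjusted p 0.0533). With RAS deleted the change was 0.14 (SE 0.09, edgeR adjusted p 0.199). In FA Uhrf1 was higher after RAS deletion under the ERF knockout label, where Dppa3 fell (0.80, edgeR adjusted p 6.9e-07), and lower for the ERF label with RAS present (-0.55, edgeR adjusted p 0.000922), both under 2-fold. The RAS by ERF interaction in FA was 0.57 (edgeR adjusted p 0.00152), and the ERF label with RAS deleted gave 0.02 (edgeR adjusted p 0.874). For the medium Uhrf1 was lower in FA in all 4 backgrounds, by -0.23 to -0.78, all under 2-fold.

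Dppa3 is a marker of early germ cells, and the germ cell list was read beside it. In FA with ERF wild type 7 of 14 rose after RAS deletion and 2 fell (median 1.04, all genes 0.00139); Prdm14, a regulator of germ cell and naive genes, was at 5.26, Ifitm1 at 3.83 and Ifitm3 (Fragilis) at 2.70. With RAS deleted in FA the ERF knockout label lowered 7 of 14 and raised 1 (median -1.21, all genes 0.0131), among them Prdm14 (-4.62) and Tfap2c (-2.80). Under the same label in FA, where Dppa3 fell, RAS deletion raised 3 of 14 and lowered 3 (median -0.25, all genes 0), with Ifitm1 at 2.34, Prdm1 at 1.80, Prdm14 at 1.42 and Sycp3 at -1.39. In 2iL with RAS present 3 rose and 5 fell under the ERF knockout label (median -0.83, all genes -0.00193), with Mael at 2.10, Nanos3 at -1.90, Tfap2c at -1.45 and Prdm14 at -1.35. With RAS deleted 4 rose and 6 fell, with Nanos3 at -3.01 and Mael at 2.40.

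Of 5 KH-domain relatives of Dppa5a, Ooep and Khdc3 were tested, and Khdc1a, Khdc1b and Khdc1c did not pass the filter. Both belong to the maternal complex of the egg. Ooep lies next to Dppa5a on chromosome 9. With ERF wild type and RAS present Ooep fell in FA (log2 change -1.60, SE 0.15, edgeR adjusted p 5.44e-09) and it rose there with RAS deleted against RAS present (1.70, SE 0.15, edgeR adjusted p 3.74e-09). It fell under the ERF knockout label with RAS deleted in FA (-1.41, SE 0.12, edgeR adjusted p 4.98e-09). After RAS deletion in FA under that label Ooep was at 0.59 (SE 0.13, edgeR adjusted p 0.00199, under 2-fold), opposite in sign to Dppa5a (-0.37). Its FA level with ERF wild type and RAS deleted was 50.4 ± 7.25 CPM against 12.6 to 18.9 CPM in the other FA group means. Khdc3 fell in FA in all 4 backgrounds, by -1.86 to -3.72 on the log2 scale, and was not called for RAS deletion in any background or for the ERF label in FA. It rose under the ERF knockout label in 2iL with RAS deleted (1.01, SE 0.34, edgeR adjusted p 0.0238). The Ooep comparisons share libraries with each other.

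The naive list gives the state of the same libraries. In FA with RAS present, naive genes summed to 401 to 535 CPM, against 3881 to 4604 CPM in 2iL. With RAS deleted in FA the sum was 1624 to 2541 CPM with ERF wild type and 469 to 519 CPM under the ERF knockout label. In that contrast 13 of 16 naive genes were lower under the label (median -2.75, all genes 0.0131), Prdm14, Tbx3, Tcl1 and Zfp42 the most. Dppa3 and Dppa5a fell in it too, with log2 changes of -3.74 and -1.26. Dppa3 fell also after RAS deletion in FA under the ERF knockout label (-1.52), and there 2 of 16 naive genes rose and 2 fell (median 0.13, all genes 0).

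The neighbours of each member, the 5 nearest tested genes on either side, were compared in the same way. Around Dppa3 these include Gdf3, Apobec1, Nanog and Slc2a3. Under the ERF knockout label in 2iL 0 of 10 neighbours of Dppa3 were called in either RAS state, with a median log2 change of -0.37 in RAS-present cells and -0.12 in RAS-deleted cells. Gdf3 was lower in both, under 2-fold, at -0.47 (edgeR adjusted p 0.000211) and -0.64 (edgeR adjusted p 3.61e-06). So was Nanog, at -0.77 (edgeR adjusted p 0.000538) and -0.57 (edgeR adjusted p 0.00413). Apobec1 was higher with RAS deleted (0.40, edgeR adjusted p 0.00516). Nanog, 77217 bases from Dppa3, fell in FA with ERF wild type and RAS present (-2.65) and rose in FA after RAS deletion (2.24). With RAS deleted in FA it fell under the ERF knockout label (-1.41), each in the direction of Dppa3, in comparisons that share libraries. It went the other way for RAS deletion in FA under the ERF knockout label, at 0.69 (edgeR adjusted p 0.00187) where Dppa3 fell (-1.52), and for the medium under that label with RAS present, where Nanog fell (-1.74) and Dppa3 was higher (1.53, described only). Apobec1, 23966 bases away, fell where Dppa3 rose after RAS deletion in FA with ERF wild type (-1.31). It fell together with Dppa3 for the medium with ERF wild type and RAS deleted (-1.14). Next to Dppa2, Morc1 fell in FA with ERF wild type and RAS present (-1.54), and under the ERF knockout label with RAS present (-1.67) and deleted (-1.44), where Dppa2 was higher. For the ERF label in FA with RAS deleted it fell (-1.18) where Dppa2 was lower too (-0.50). These genes were named after their values were seen.

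**Figure D4:**
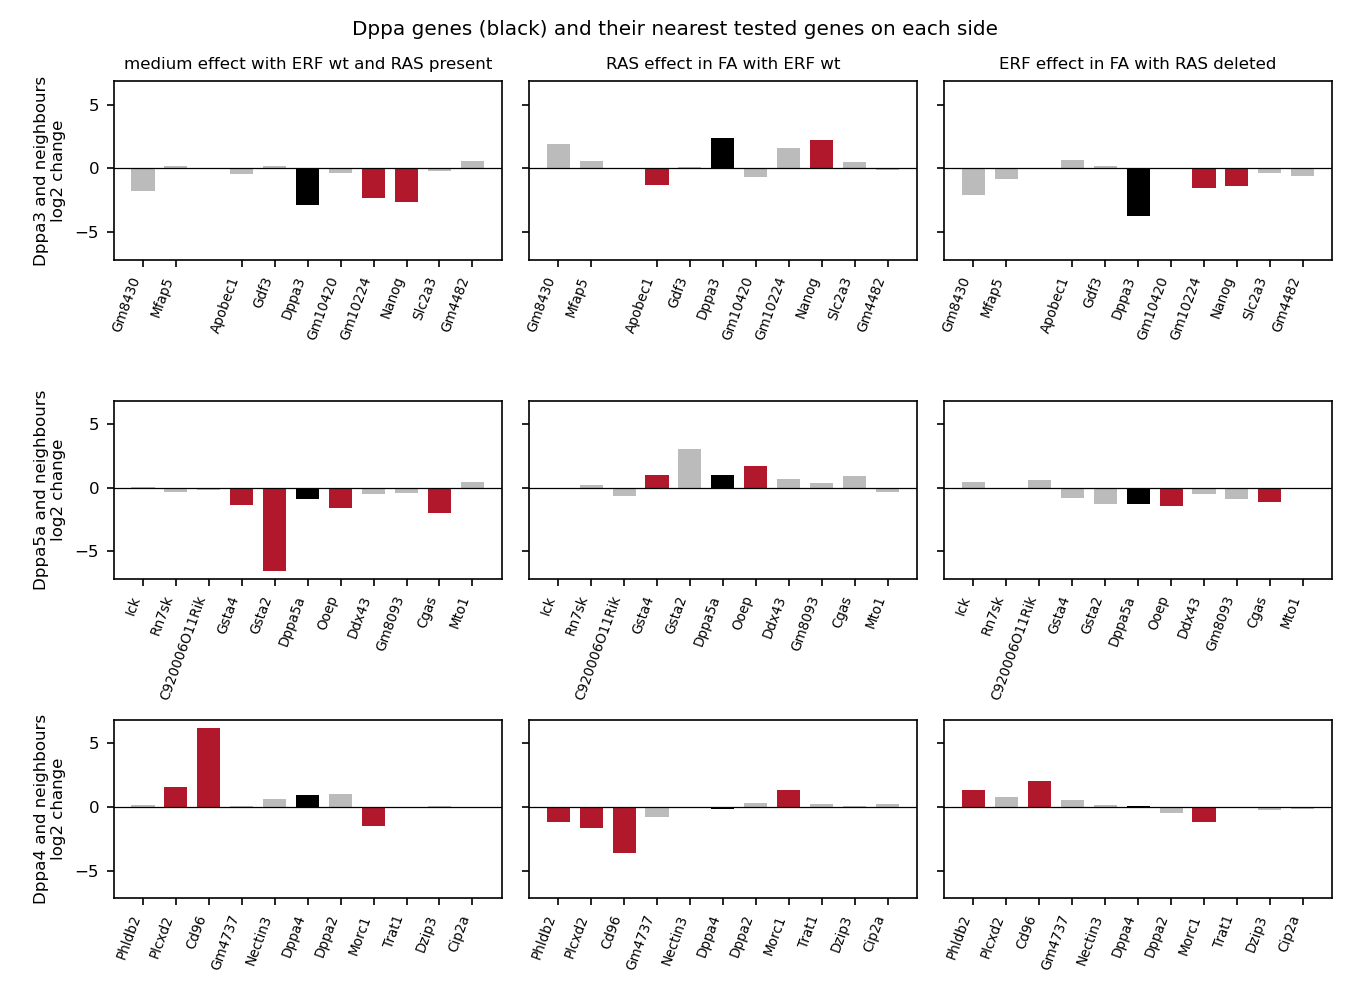
Log2 change of Dppa3, Dppa5a and Dppa4 (black) and of the nearest tested genes on each side in genome order (up to 5, with 1 left out beside Dppa3), in 3 comparisons (red bars passed an adjusted p of 0.05 and 2-fold, grey bars did not). Nanog has the sign of Dppa3 and Ooep that of Dppa5a in these 3, which share libraries. Neither does for RAS deletion in FA under the ERF knockout label, which is not drawn (Nanog 0.69 and Dppa3 -1.52, Ooep 0.59 and Dppa5a -0.37).

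Over libraries, the members fell into no single pattern. In the 11 FA libraries the Pearson r of log2 CPM was 0.957 between Dppa3 and Dppa5a, 0.890 between Dppa2 and Dppa3 and 0.873 between Dppa2 and Dppa5a, while Dppa4 had r from -0.165 to 0.0622 with the other members. In the 12 libraries of 2iL, Dppa3 and Dppa4 had r of -0.894. These values describe libraries that fall into 4 groups per medium, so they mostly restate the group levels.

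For each member the 5 genes with the highest Pearson r to it over the 23 libraries were taken from 11322 tested genes. Predicted genes (Gm and Rik symbols) were passed over. For Dppa3 they were Smtnl1 (Pearson r 0.962), Adcy5 (0.957), Otud1 (0.951), Gpat3 (0.942) and Zan (0.939). Smtnl1 stood at 7.12 ± 0.215 CPM with ERF wild type and RAS deleted in 2iL and at 0.687 ± 0.0158 CPM under the ERF knockout label with RAS present in 2iL (SD, n = 3 each). For Dppa5a they were Acp6 (0.966), Cep55 (0.957), Pramef12 (0.950), Kmt5c (0.950) and Serpinb6c (0.947). For Dppa2 they included Nodal (0.914), Grwd1 (0.897), Pgm2l1 (0.892) and Sh3kbp1 (0.891), and for Dppa4 Ramp3 (0.922), Enox1 (0.921), Aldh1b1 (0.917), Armcx2 (0.912) and Ece1 (0.911). By Spearman's rho, 2 of the 5 stayed for Dppa3 and 0 of 5 for each other member, so these names depend on the measure.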

How the data were processed

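The cells were mouse embryonic stem cells, and rRNA-depleted RNA was sequenced strand-specifically as 75-base pairs, per the labels' protocols. Reads were demultiplexed with bcl2fastq 2.20.0, trimmed with fastp 0.20.0 and quantified with Salmon, with mm10 named as build, per the submitters' processing notes. The deposited matrix holds counts per gene, and it equals the deposited estimated counts of each library after rounding in every cell. The deposited TPM values of each library, also made by the authors, were used for levels between genes. CPM, each count relative to its library's scaled total, were computed here with trimmed mean of M values scaling.

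All 23 libraries entered 1 edgeR 4.0.16 quasi-likelihood fit (R 4.3.3, robust, 1 coefficient per group, filterByExpr, 20372 genes), and p-values were adjusted by the Benjamini-Hochberg method over all genes tested. A call needs an adjusted p under 0.05 and at least a 2-fold change. SE is the log2 change over the square root of F, and intervals are 95%. The fit was tested on simulated counts. Total counts were 16.2 to 29.9 M per library (median 22.0 M), of which the row Gm26917 held 17.6% to 27.9%. Limits from counting matter most for Dppa3, at 14 to 54 counts in its lowest groups. No replicate pair was a duplicate. Positions and gene types came from the GENCODE annotation of GRCm38.

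Members and lists were chosen with earlier results of these data known. The text names the 4 members everywhere, at most 4 called genes of a list with the largest change per comparison (every gene of a list of 5 or fewer), and from the 5 genes most like each member by Pearson's r of log2(CPM + 1) among genes reaching 5 CPM in 1 group mean. A neighbour of Dppa3 and a gene like Dppa2 are not reported here. Samples with 1 replicate number were taken as pairs where deviations from the group means correlated above 0.1 in every pair of 3. This held for the medium with RAS deleted and ERF wild type, for the medium under the ERF knockout label in both RAS states, and for RAS deletion in 2iL in both ERF states. Alternatives were other scalings and filters, DESeq2 1.42.0, a replicate block, smaller fits and leaving out libraries.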

Additional observations from a re-analysis of the deposited data

Results flagged for a closer look

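Effects of 1 factor differed between groups, by an interaction term over all 23 libraries, for 3 results on the Dppa genes. The effect of RAS deletion on Dppa3 in FA was 2.39 with ERF wild type and -1.52 under the ERF knockout label, a log2 difference of -3.91 (edgeR adjusted p 2.15e-07). For Dppa5a the same effects were 0.99 and -0.37, a difference of -1.37 (edgeR adjusted p 1.82e-05). The effect of FA on Dppa3 with ERF wild type was -2.84 in RAS-present cells and -1.28 in RAS-deleted cells, a difference of 1.56 (edgeR adjusted p 0.00124).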

How the results depend on the processing

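Of the settings tried, 1024 values of named genes and 247 values of comparisons kept their direction and side of the threshold. Among named genes 30 values newly passed a threshold, 2 no longer passed and 14 changed sign. A further 14 values of named genes and 27 values of comparisons moved. With no 2-fold minimum, the members called (and the share of all genes) were 4 (49.5%) for the medium with ERF wild type and RAS present, 3 (43%) with RAS deleted, 3 of 3 tested (46.9%) and 2 of 3 (55.7%) under the ERF knockout label with RAS present and deleted, 2 (5.7%) for RAS deletion in 2iL with ERF wild type, 2 (41.3%) and 2 (26.4%) in FA with ERF wild type and under the ERF knockout label, 3 (42.8%) for the ERF label in FA with RAS deleted, 3 (28%) for the RAS by ERF interaction in FA, 2 (24.5%) for the medium by RAS interaction with ERF wild type and 1 of 3 (13.1%) under the ERF knockout label. A fit with the replicate number as a block called 2 members for the medium with ERF wild type and RAS present (Dppa2 at 1.14), 2 for RAS deletion in FA with ERF wild type (Dppa5a at 1.16) and 2 for the medium by RAS interaction with ERF wild type (Dppa5a at 1.09), and it changed no other call of a member. An effective length offset gave 2 for the medium with ERF wild type and RAS present, and leaving out Gm26917 gave 2 for RAS deletion in FA with ERF wild type. On deposited TPM the log2 ratio of highest to lowest group mean was 1.69 for Dppa2 and 1.27 for Dppa5a. The cause of these differences was not tested.

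Where a replicate of the ERF wild-type FA group with RAS present was left out, 1 library stayed, assumed to vary like the other groups. With each replicate left out in turn, the Dppa3 log2 change under the ERF knockout label in 2iL ran from -4.66 to -3.87 with RAS present and from -5.65 to -4.94 with RAS deleted. Members called ran from 1 to 2 for the medium with ERF wild type and RAS present, for RAS deletion in FA with ERF wild type and for the medium by RAS interaction with ERF wild type, and from 0 to 1 for the medium under the ERF knockout label with RAS present. Reversed signs all belonged to small changes. For the ERF label in FA with RAS present, Dppa2 was 0.020 with the replicate block and ran from -0.17 to 0.030 over the replicates left out (the latter without ERF knockout label replicate 3). In that comparison Dppa3 ran from -0.014 to 0.35 (the lowest without ERF knockout label replicate 2), and Dppa5a from -0.050 to 0.34, at -0.043 without ERF knockout label replicate 2 and -0.050 without ERF wild-type replicate 1, or without the 4 libraries of raised chromosome 8 (chosen after seeing the data). Dppa3 for the medium under the ERF knockout label with RAS deleted ran from -0.12 to 0.64, negative without 2iL replicate 2 (-0.081) or FA replicate 2 (-0.12). For RAS deletion in 2iL under that label it ran from -0.63 to 0.30, positive without RAS-deleted replicate 2 (0.069) or RAS-present replicate 1 (0.30). Dppa5a for the medium with ERF wild type and RAS deleted ran from -0.033 (without FA replicate 1) to 0.22, and was -0.079 without the chromosome 8 libraries. For RAS deletion in 2iL with ERF wild type it ran from -0.019 (without RAS-present replicate 1) to 0.10, and was -0.0033 without RAS-deleted replicate 3. Over all genes, counts of calls moved by over 1.5 times with small main counts: 244 for RAS deletion in 2iL with ERF wild type ran from 70 to 559, 43 under the ERF knockout label from 17 to 240, 77 for the RAS by ERF interaction in 2iL from 26 to 457, and 480 for the ERF label in FA with RAS present from 124 to 881. With no 2-fold minimum all 16 counts rose by more than that.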

Other observations

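Dppa1, a row related to the Dppa genes by name, was near the floor. It had 38, 14 and 9 counts in the ERF wild-type 2iL libraries with RAS present and 19, 12 and 14 counts with RAS deleted, and at most 2 counts in every other library.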
